A study of Mus musculus with 8 samples.

Results

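PRO-cap, a run-on assay for the capped 5′ ends of nascent transcripts, was used to map transcription starts in frozen mouse liver. The peaks described here are cryptic start peaks of 150 bp that shared at least 1 base with an exon of any gene in GENCODE M21, without regard to strand. They number 222 of the 1401 peaks in the deposited pair of larger lists, with 162 among the 976 old peaks and 60 among the 425 young peaks. Per the labels there were 8 C57/BL6J samples on standard chow. The old group held 4 samples aged 22 to 25 months and the young group 4 samples aged 2 to 4 months, and either group had 2 females and 2 males. Young mice came from Jackson Laboratories and old mice from the National Institute on Aging colony, so age and colony cannot be told apart.

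Each list held 1 pooled value per peak, and the lists carry marks (OF and YF) that the labels elsewhere give to files of the females. The sources used here do not say whether males were pooled in, and no difference between ages could be set against a spread between animals. A peak is in a list because its reads at the listed age were at least 10 times those at the other age, so that direction and size are how the peaks were chosen and are given as description. The lists hold no other genes' levels, so the labelled tissue was not checked against liver markers. In bulk tissue, fewer cells of a type and less RNA per cell cannot be told apart.

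Genes are normally transcribed from a promoter upstream of the first exon. Capped starts inside a gene can open shorter transcripts, and one in or before a coding exon could leave out the first part of the protein, while one in the 3′ untranslated region (3′ UTR, the stretch after the stop codon) would hold no more than the end of the message. Factors that travel with the polymerase normally restore chromatin behind it and limit starts inside genes. The lists give no strand for a peak, so whether these starts run with or against the host gene could not be read.

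The 30 bases around the centre are shown first for some strong coding peaks in which these bases lie within an exon. They are given as description, and the coding results of later paragraphs were not computed from these windows. The first 4 are old-list peaks and the last 3 young-list peaks, each read 5′ to 3′ along its gene in GENCODE M21 transcripts on mm10, with CG dinucleotides in capitals.
Pigr, chr1:130849042-130849071 (+): ggtgcccctgggtctggtgctggcagtggg
4930539E08Rik, chr17:28899675-28899704 (-): tCGgatgcctccctcaggaagctggtggct
Nme7, chr1:164332642-164332671 (+): aagCGgaccaagtatgaggacctgCGcctg
Ncapg2, chr12:116442945-116442974 (+): tttttttatgtttcattacttcttggcatt
Fermt2, chr14:45472796-45472825 (-): ctagaagagatCGaatgcaCGgaagaagag
Mgat1, chr11:49260910-49260939 (+): gcaaatcaaggagcattatgctttgtggag
Ank, chr15:27564999-27565028 (+): tgtccCGggaccttggtggcagctctgctg
The centres ranged from 23.3% G or C in Ncapg2 to 73.3% in Pigr, and held between 0 and 2 CG dinucleotides each.

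A further set of 30-base windows is shown because they hold the GC box, GGGCGG or its reverse complement CCGCCC, in old-list peaks. The GC box is the binding motif of Sp1 and related factors and is common at CpG-rich promoters. Capitals mark the GC box, and the sequences again run 5′ to 3′ along the gene on mm10. The first 5 lie in coding sequence and the last 5 in 3′ UTRs.
2510009E07Rik, chr16:21653309-21653338 (-): acacagaagaagGGGCGGagctgagttccg
Fgf23, chr6:127080164-127080193 (+): ggcaccaacccgCCGCCCttctcccagttc
Gpr179, chr11:97334654-97334683 (-): gagcaagagtgtCCGCCCagacatcagcaa
Gpr179, chr11:97334621-97334650 (-): acctggctcttcCCGCCCggaaggcgtcag
Btd, chr14:31667440-31667469 (+): aacgtgaatgtcCCGCCCaccttccactcg
Anks1b, chr10:90969587-90969616 (+): tctgcgccccggGGGCGGggccaggtctca
Anks1b, chr10:90971721-90971750 (+): gttctgtgagcaCCGCCCcgggaccaaagg
Itpkb, chr1:180423374-180423403 (+): gacagttggtggGGGCGGgaggagggaccc
Sv2c, chr13:95960606-95960635 (-): ccaagcacttctGGGCGGggctcttttggg
Kif3b, chr2:153333175-153333204 (+): caggcaggaggtGGGCGGggcttgatggct
The 6 capital letters of each window are the match alone, and a match is a description of the letters and not evidence of binding.

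Exonic peaks made up 16.6% of the old list (95% interval 14.3 to 19.1%) and 14.1% of the young list (10.9 to 17.8%), and these intervals overlapped. All intervals here are Clopper-Pearson intervals, cover counting error only and treat each peak as separate. Each peak was put in 1 class, coding sequence if any base was coding, otherwise UTR, otherwise non-coding exon. In the old list 85 exonic peaks touched coding sequence, 58 a UTR and 19 a non-coding exon, and in the young list 18, 32 and 10 did. Coding sequence thus held 52.5% of old exonic peaks (44.5 to 60.4%) and 30% of young ones (18.8 to 43.2%), and these intervals did not overlap. UTRs held 35.8% (28.4 to 43.7%) and 53.3% (40.0 to 66.3%), and non-coding exons 11.7% (7.21 to 17.7%) and 16.7% (8.29 to 28.5%).

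The gap between ages in coding sequence rested in part on peaks that touched a coding exon with their edge. When the class was instead read at the centre of the peak, which 128 old and 52 young peaks had in an exon, coding sequence held 39.8% (31.3 to 48.9%) of old and 28.8% (17.1 to 43.1%) of young peaks, and the intervals overlapped. As a share of the whole list, coding peaks were 8.71% (7.02 to 10.7%) of old and 4.24% (2.53 to 6.61%) of young peaks, UTR peaks 5.94% and 7.53%, and non-coding peaks 1.95% and 2.35%.

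**Figure D1:**
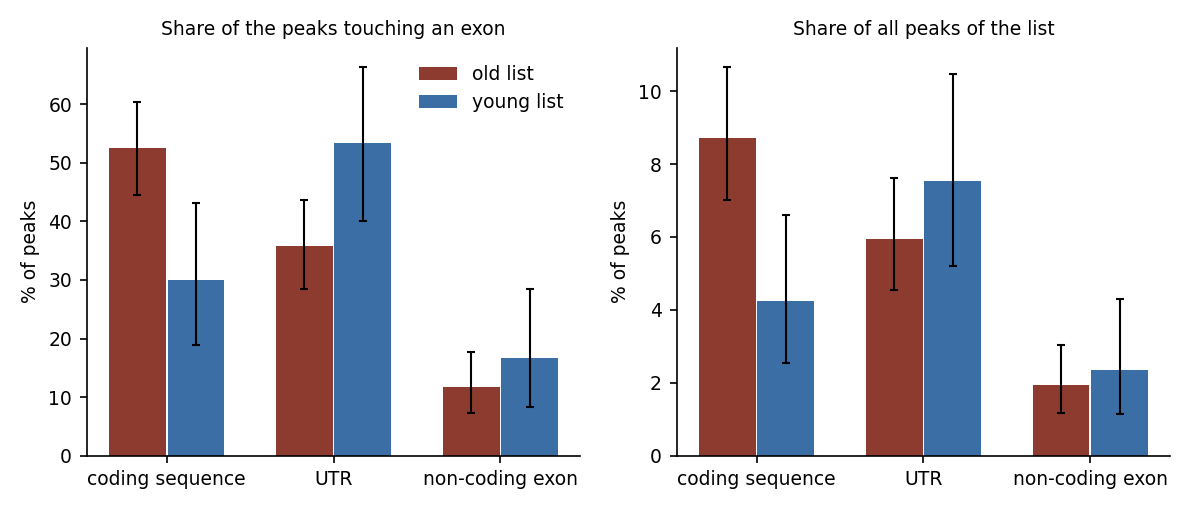
Exonic peaks by class and list. Bars give the share of peaks in percent, of the exonic peaks in one panel and of the whole list in the other, with 95% Clopper-Pearson intervals; among exonic peaks the old list has 52.5% in coding sequence and the young list 30%.

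Exonic peaks carried reads much like the rest of each list. The old ones had a median of 163 reads in old liver (37 to 947), against 158.5 for the 814 old peaks outside exons. Young ones had a median of 187 reads in young liver (22 to 1306), against 160 for the 365 young peaks outside exons. By class, the medians were 159, 162 and 262 reads for coding, UTR and non-coding peaks in the old list, and 180, 179.5 and 226 in the young list.

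At 53 of the 162 old exonic peaks young liver had 0 reads, a share of 32.7% (25.6 to 40.5%) beside 36.0% of the whole old list. At 13 of the 60 young exonic peaks old liver had 0 reads, 21.7% (12.1 to 34.2%) beside 25.2% of the whole young list. Both shares were near those of their lists. In the old list these peaks were 29 of 85 in coding sequence, 21 of 58 in UTRs and 3 of 19 in non-coding exons, and in the young list 5 of 18, 4 of 32 and 4 of 10. The remaining exonic peaks had reads at both ages, and so were not confined to either.

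The ratio of reads at the listed age to those at the other, scaled for depth, had a lower 95% bound of at least 10 at 121 old exonic peaks (74.7%), beside 72.2% of the old list. It did so at 31 young exonic peaks (51.7%), beside 56.7% of the young list. Among young peaks, 12 of 18 in coding sequence, 12 of 32 in UTRs and 7 of 10 in non-coding exons reached that bound. In the old list 65 of 85 coding, 41 of 58 UTR and 15 of 19 non-coding peaks did.

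**Figure D2:**
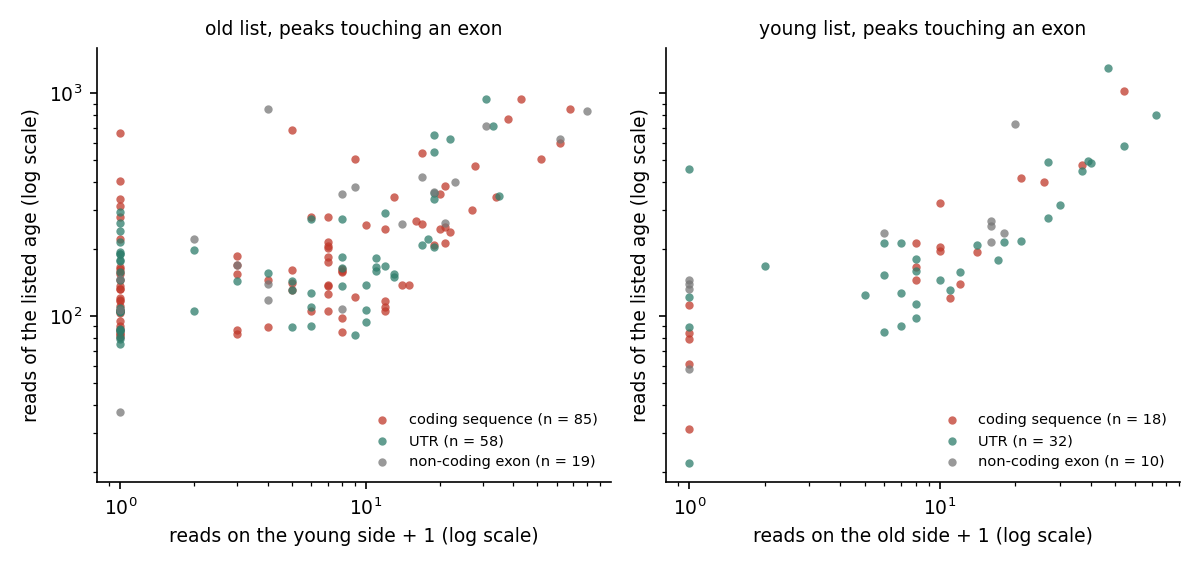
Reads at the listed age (vertical) against reads at the other age plus 1 (horizontal) for every exonic peak, on logarithmic axes, coloured by class. Old-list peaks range from 37 to 947 reads in old liver and young-list peaks from 22 to 1306 in young liver, and 53 and 13 peaks lie at 0 reads at the other age, drawn at 1.

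The authors also deposited a stricter list for each age, which gives positions only. Of the old exonic peaks, 34 (21%, 15 to 28.1%) shared at least 1 base with the stricter old list, beside 21.9% of the whole old list. Of the young exonic peaks, 3 (5%, 1.04 to 13.9%) shared a base with the stricter young list, beside 0.941% of the whole young list and 1 of 365 young peaks outside exons. Those 3 lie in Fermt2, Ptdss1 and Socs4. The stricter old list held 36 exonic peaks of 216, of which 19 were coding, 13 UTR and 4 non-coding. In the stricter young list 4 of 10 peaks were exonic, 2 coding (Fermt2 and Zfp235) and 2 in UTRs (Ptdss1 and Socs4). With so few young peaks, the order of these shares rests on single peaks.

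In the old list the coding peak with the highest lower bound was in Pigr, whose product moves polymeric immunoglobulins across epithelia and into bile. It spanned the whole 128-bp exon 8 of 11 (chr1:130848982-130849131) and had 661 reads in old liver and 0 in young liver, at least 231-fold higher in old. Bounds of this kind are computed against a floor of 3 reads at the age with 0. The next were 4930539E08Rik, exon 11 of 12 (chr17:28899615-28899764), with 406 reads in old and 0 in young, and Nme7, exon 5 of 14 (chr1:164332582-164332731), with 336 and 0. Nme7 belongs to the nucleoside diphosphate kinase family. They were at least 142-fold and 118-fold higher in old.

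Snx29, a sorting nexin, had 313 reads in old and 0 in young liver at a peak (chr16:11656046-11656195) that spanned its 56-bp exon 10 of 14, with the peak's centre 15.5 bp upstream of that exon. It was at least 110-fold higher in old. Ncapg2, a subunit of the condensin II complex, had 279 reads in old and 0 in young at exon 24 of 29 (chr12:116442885-116443034), at least 97.6-fold higher. All 5 of these peaks also lay in the stricter old list.

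Several genes held coding peaks at more than 1 locus, counting peaks within 500 bp as 1 locus. Irf2, a transcription factor of the interferon response, had a peak with 36 coding and 114 UTR bases at chr8:46846979-46847128. At that peak Irf2 had 223 reads in old and 0 in young, at least 78.0-fold higher in old. Its other peak, over a whole 47-bp exon (chr8:46844761-46844910), had 508 reads in old and 51 in young, a ratio of 10.5 (7.83 to 14.2). The 2 Irf2 peaks thus differed in what young liver showed, 0 reads at one and 51 at the other. Pnpla5, of the patatin-like lipase family, had 206 reads in old and 6 in young at 1 peak, a ratio of 36.0 (16.3 to 99.3). That peak held 60 coding and 90 UTR bases. The other Pnpla5 peak had 87 and 2, a ratio of 45.7 (12.3 to 383).

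Chd1, a chromatin remodeller that travels with elongating polymerase, held 1 old coding peak at exon 30 of 36 (chr17:15761306-15761455). It had 186 reads in old and 2 in young, a ratio of 97.6 (26.6 to 812). Fah, the last enzyme of tyrosine breakdown, held 1 at exon 9 of 14 (chr7:84594646-84594795) with 138 reads in old and 13 in young, a ratio of 11.1 (6.30 to 21.5). Both genes are from fixed gene lists, Chd1 from that of chromatin and elongation and Fah from that of amino acid metabolism.

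In the young list the coding peak with the highest lower bound was in Fermt2, which encodes kindlin-2, an activator of integrins. It spanned the whole 108-bp exon 7 of 15 (chr14:45472736-45472885) and had 112 reads in young and 0 in old, at least 35.6-fold higher in young. Bmp2k, a kinase, had 84 reads in young and 0 in old (chr5:97057018-97057167), but only 9 of the peak's 150 bases were exonic. Mgat1, which starts the conversion of N-glycans to complex forms, had 79 and 0 at a peak wholly within coding sequence (chr11:49260850-49260999), at least 25.1-fold higher. Ank, a membrane protein of pyrophosphate export, had 61 and 0 (chr15:27564939-27565088), at least 19.4-fold higher. The largest bound here, 35.6, was below those of the 5 old coding peaks named first. With 0 reads at the other age, each of these bounds follows from the reads at the listed age alone. They are the highest of 18 young and of 85 old coding peaks, so their order is not read as a difference between ages.

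Rab21, a small GTPase of endosomes, had 323 reads in young and 9 in old over its whole 64-bp exon (chr10:115298760-115298909), a ratio of 34.2 (17.8 to 75.5). An overlapping Rab21 peak had 204 and 9. Tnrc6a, a scaffold of microRNA silencing, had 214 reads in young and 7 in old at a coding peak, a ratio of 29.1 (13.9 to 73.3). Sipa1l1, which acts on Rap GTPases, had 400 and 25, a ratio of 15.2 (10.2 to 23.8).

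Coding peaks of both lists lay at exon edges in similar shares. An edge, either the start of an exon other than the first or the end of one other than the last, fell inside 69 of 85 old peaks (81.2%) and 14 of 18 young peaks (77.8%). An exon start fell inside 48 old (56.5%) and 10 young (55.6%), an exon end inside 33 (38.8%) and 7 (38.9%), and both inside 12 and 3. Only 20 old (23.5%) and 4 young (22.2%) coding peaks were wholly exonic. The centre lay within the exon in 55 old and 16 young coding peaks, upstream of it in 17 and 1, and downstream of it in 13 and 1. These exons had a median length of 144 bp in the old list (33 to 8020) and 202.5 bp in the young list (64 to 2843), and median exon number 10 and 6. A coding exon shorter than the 150-bp interval can hold no whole peak, so these shares follow in part from exon length.

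**Figure D3:**
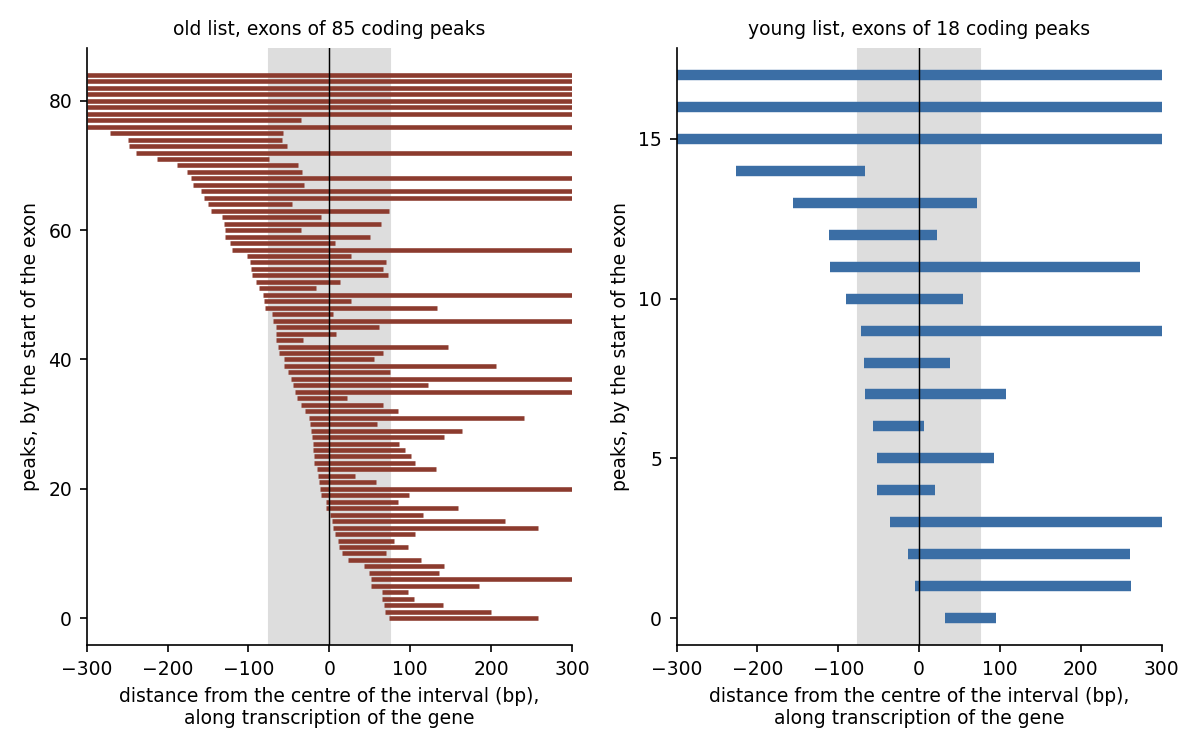
Exons of the coding peaks, each drawn as a bar against the centre of its peak in bp along transcription of the gene, with the 150-bp peak shaded and 1 line per peak. Exon edges fall inside the peak in 69 of 85 old and 14 of 18 young peaks, on either side of the centre.

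UTR peaks were almost all 3′ UTR peaks, 56 of 58 old ones and 32 of 32 young ones. The 2 others were 5′ UTR peaks of the old list. Pkig, an inhibitor of protein kinase A, had 191 reads in old and 0 in young, and Snn had 75 and 0. No peak centre in the whole lists lay nearer than 3578 bp (old) or 3580 bp (young) to an annotated transcription start. Stretches of 5′ UTR close to a start were thus outside the lists, and the 3′ UTR share follows in part from that. Unlike coding peaks, most UTR peaks were wholly exonic, 52 of 58 (89.7%) and 26 of 32 (81.3%). Last exons held 57 of 58 and 32 of 32 UTR peaks, and 93 of 162 old (57.4%) and 41 of 60 young exonic peaks (68.3%) of any class.

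Within the 3′ UTR, old peaks had a median relative position of 0.576 and young peaks of 0.707, where 0 is the stop codon and 1 the transcript end. The quartiles, 0.264 to 0.751 and 0.459 to 0.899, overlapped. The later part of the UTR, beyond 0.5, held 31 of 56 old and 23 of 32 young peaks. The host UTRs were of similar length, with medians of 2403 and 2242 bases, and the peaks lay a median of 909.5 (30 to 5001) and 989 (115 to 6268) bases after the stop. The transcript end itself lay inside 4 old and 6 young UTR peaks.

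**Figure D4:**
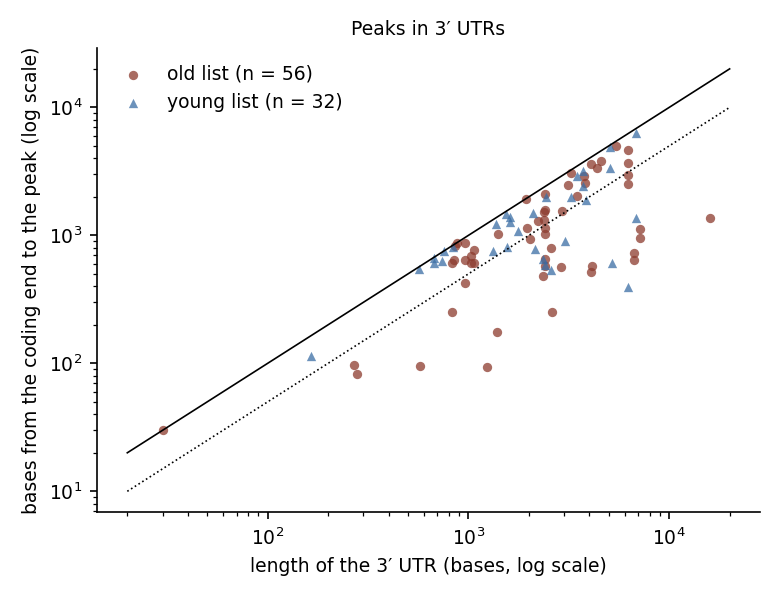
Bases from the stop codon to each 3′ UTR peak (vertical) against the length of that UTR in bases (horizontal), on logarithmic axes, with the solid line at the transcript end and the dotted line at a relative position of 0.5. Old peaks have a median position of 0.576 and young peaks of 0.707, and both spread over the length of the UTR.

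Among old UTR peaks, the highest lower bounds were at BC049352, Zbtb46, Anks1b, Celf2 and Pla2g16, each with 0 reads in young liver. BC049352 had 292 reads in old (chr9:45248786-45248935), at least 102-fold higher. Zbtb46, a transcription factor known from dendritic cells, had 262 (chr2:181410935-181411084), at least 91.7-fold higher. Celf2, an RNA-binding regulator of splicing, had 215 (chr2:6545797-6545946), at least 75.2-fold higher. Pla2g16, a phospholipase, had 195 (chr19:7580798-7580947), at least 68.2-fold higher. Zbtb46 and Celf2 each held another old peak with 0 reads in young, of 106 and 86 reads.

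Anks1b, an ankyrin-repeat scaffold best known from neurons, held 6 old exonic peaks at 4 loci, more loci than any other gene. Its 4 UTR peaks had 242 and 158 reads in old with 0 in young, 156 with 3, and 144 with 4. The first (chr10:90969480-90969629) was at least 84.7-fold higher in old. Its 2 coding peaks had 107 and 105 reads in old and 0 in young, at least 37.4-fold and 36.7-fold higher. The first of these held only 10 coding bases and 140 UTR bases, and the second held 59 coding bases. All 6 Anks1b peaks were thus between 105 and 242 reads in old and at most 4 in young liver. Snn, which encodes the small membrane protein stannin, held 4 old UTR peaks at 2 loci, with 547 reads in old and 18 in young, 357 and 18, 104 and 0, and 75 and 0. The first had a ratio of 31.9 (20 to 54.2) and overlapped the second, so these may share reads.

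Among young UTR peaks, Ugcg, which makes glucosylceramide, had the highest lower bound. It had 457 reads in young and 0 in old (chr4:59222327-59222476), at least 145-fold higher in young. Phip, a bromodomain protein, had 122 and 0 at one peak (chr9:82866238-82866387), at least 38.7-fold higher, and 496 and 38 at the other, a ratio of 12.4. Akap9, an anchor of protein kinase A, had 89 and 0 (chr5:4080882-4081031), at least 28.3-fold higher. Ptdss1, a phosphatidylserine synthase, had 168 reads in young and 1 in old (chr13:66997761-66997910), a ratio of 160 (28.3 to 6359) whose width reflects the single read.

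The young exonic peak with the most reads was in Ttc39b, a gene linked to lipoprotein metabolism, with 1306 in young and 46 in old (chr4:83225694-83225843), a ratio of 27.1 (20.2 to 37.1). Its other UTR peak had 98 and 7, a ratio of 13.3. Tnrc6a and Bmp2k, which also held young coding peaks, had UTR peaks of 160 and 7 reads, a ratio of 21.8 (10.3 to 55.0), and of 215 and 17, a ratio of 12. Itih2, a heavy chain of the plasma inter-alpha-trypsin inhibitor, had 127 reads in young and 6 in old (chr2:10094541-10094690), a ratio of 20.2 (9.01 to 56.0).

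Non-coding exons held 19 old and 10 young peaks. Of these, 14 and 7 were in lincRNA or antisense genes, and 5 and 3 in non-coding transcripts of protein-coding genes. The antisense gene D630008O14Rik, within Bcl2, had 854 reads in old and 3 in young (chr1:106569824-106569973), a ratio of 299 (102 to 1452), though only 10 bases of that peak were exonic. Its other peak had 169 and 2, a ratio of 88.7 (24.2 to 738). The antisense gene 5031415H12Rik, within Dlgap1, had 147 and 0, at least 51.4-fold higher in old. The lincRNA Mirt1 had 354 and 7, a ratio of 53.1 (25.5 to 133). Peaks over exons of retained-intron transcripts in the transcription factor genes Creb5 and Pou2f1 had 221 and 1, a ratio of 232 (41.2 to 9203), and 107 and 0, at least 37.4-fold higher. These intervals lie within the host genes, so their reads cannot be credited to one transcript or strand.

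In the young list the lincRNA Gm10556 held 2 non-coding peaks with 145 and 133 reads in young and 0 in old liver, at least 46.1-fold and 42.2-fold higher, the first with 27 exonic bases. The lincRNA 1110036E04Rik had 236 and 5, a ratio of 45.0 (19.0 to 140). Peaks over retained-intron exons in Lcmt1, which methylates protein phosphatase 2A, and in Sipa1l1 had 139 and 0, at least 44.1-fold higher, and 727 and 19, a ratio of 36.5 (23.2 to 60.9). Non-coding peaks of both ages thus reached ratios in the range of the coding and UTR peaks.

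The old peaks fell in 136 genes and 141 loci, and the young ones in 52 genes and 58 loci. The lists shared 0 of these genes, but with sets this small among all annotated genes the count is not read as a difference between ages. Beside Anks1b, Irf2, Snn, D630008O14Rik and Pnpla5 in the old list, Phip, Tnrc6a, Sipa1l1, Ttc39b, Bmp2k and Gm10556 in the young list each held 2 loci. In the old list 45 of 162 exonic peaks (27.8%) lay within 500 bp of another old peak, and in the young list 7 of 60 (11.7%). Of the protein-coding genes with an exonic peak, 34 of 124 (old) and 8 of 46 (young) also held a peak outside exons. The matching shares over all peaks of each list are not given here, and the old list is the longer. These counts are therefore not read as a trait of exonic peaks or as a difference between ages.

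Of 8 fixed gene lists, 5 held 1 gene with an exonic peak each and 3 held 0. Among 28 hepatocyte secreted proteins there was 1, young (Itih2), among 21 genes of amino acid metabolism 1, old (Fah), and among 27 of lipid metabolism 1, young (Ugcg). Among 12 biliary genes there was 1, old (Pigr), and among 28 of chromatin and elongation 1, old (Chd1). Lists of hepatocyte transcription factors and nuclear receptors (27 genes), leukocytes (28) and liver endothelial and stellate cells (20) held 0. Over all 21924 protein-coding gene symbols, 124 (0.566%) held an old and 46 (0.210%) a young exonic peak. With at most 1 gene each, these lists give counts only.

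The GC content of the peak's bases in its class, in 1 transcript, was compared with the rest of the same region of that transcript. Coding peaks held a median of 83 coding bases in the old list (minimum 1) and 103 in the young list (minimum 9). Some values thus rest on few bases. In coding sequence the GC content was close to the rest, with old-list medians of 53.5% in the peak and 53.8% outside (39 peaks higher, 45 lower). In the young list they were 51.7% and 51.7% (10 higher, 8 lower). In UTRs it was higher in most peaks of both ages, with 50.7% against 47.3% in the old list (38 higher, 19 lower) and 45.7% against 42.4% in the young list (22 higher, 9 lower). In non-coding exons the medians were 51.6% against 49.4% and 50.7% against 47.1%.

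Motifs were counted on either strand in peaks that lay with all 150 bases in 1 transcript, and in 150-base tiles of the transcripts of 21864 genes. No motif count was among the planned results. In 3′ UTRs the GC box (GGGCGG) was present in 12 of 51 old peaks (23.5%, 12.8 to 37.5%), in 9 of 39 genes. It was in 0 of 26 young peaks, for which 95% limits allow up to 13.2%, and in 2.21% of the 680 other tiles of the old transcripts, 2.78% of the 395 of the young, and 2.14% of 163030 tiles of all genes. The interval of the old peaks lay above these tile shares and overlapped that of the young peaks. These old peaks had a median GC content of 51.3%, the young ones 46.3% and all tiles 43.3%, and its part in the GC box count was not tested.

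In coding sequence the GC box was in 5 of 15 old peaks (33.3%, 11.8 to 61.6%), in 4 of 14 genes, and in 0 of 4 young peaks. It was in 9.41% of 202 other tiles of the old transcripts and 6.35% of 158544 tiles of all genes. The genes with GC box peaks were named after the values were seen. Among them, Gpr179 had 538 reads in old and 16 in young at the peak that holds both Gpr179 windows printed above, and 599 and 61 at an overlapping peak that holds 1 of them. Fgf23, a phosphate-regulating hormone, had 83 and 0, 2510009E07Rik 136 and 0, and Btd, which releases biotin, 138 and 6. In 3′ UTRs, Itpkb, an inositol phosphate kinase, had 105 and 1, the Sv2c peak of the window 136 and 7, and the kinesin Kif3b 150 and 12.

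The TATA box core (TATAAA) was in 3.92% of old peaks, 0% of young ones and 14.4% of all 3′ UTR tiles. The share of all tiles lay above the upper limits of both peak sets (13.5 and 13.2%). Among other tiles of the same transcripts it was 8.97% for old, within the interval of the old peaks. For young it was 15.4%, above the limit of the young peaks. The CCAAT box (CCAAT) was in 13.7%, 7.69% and 19.7%, and the intervals of both peak sets include the tile share. The polyadenylation signal (AATAAA) marks transcript ends when read along the gene. It was counted here together with its reverse complement, so these are not counts of the signal alone. Either was in 7.84% of old peaks (2.18 to 18.9%) and 26.9% of young peaks (11.6 to 47.8%). These intervals overlapped. The share of all tiles, 21.5%, lay above the old interval and within the young. Other tiles of the same transcripts had 15.9% (old) and 24.3% (young), each within the interval of its own peaks. The median GC content of both peak sets was above that of all tiles, and its part in the TATAAA and AATAAA counts was not tested. The ETS core (AGGAAG), chosen after counts were seen, was in 18 of 51 old peaks (35.3%, 22.4 to 49.9%) and 6 of 26 young peaks (23.1%, 8.97 to 43.6%). It was in 20% (17.1 to 23.2%) of the other tiles of the old transcripts, 17.2% of those of the young, and 16.5% of all tiles. The interval of the old peaks lay above these shares, but overlapped the interval of the other tiles of the old transcripts. Since the motif was picked for its count, this supports nothing further.

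**Figure D5:**
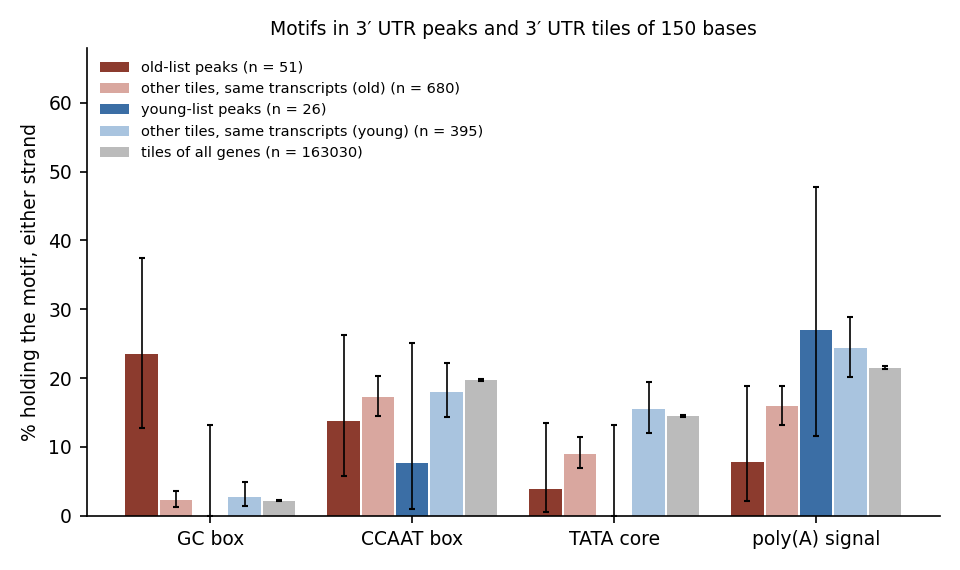
Share of 3′ UTR peaks and 3′ UTR tiles of 150 bases that hold each motif on either strand, in percent, with 95% Clopper-Pearson intervals. The GC box is in 12 of 51 old peaks and 0 of 26 young peaks, against 2.14% of tiles of all genes.

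Near-identical copies could let reads of 1 gene count for another. Of peaks with at least 100 exonic bases, 1 of 100 in the old list (Zmynd8) and 1 of 45 in the young list (Mug1, a plasma protease inhibitor with close relatives such as Mug2) matched a transcript of another gene at 90% identity or more over 100 bases. Their reads are therefore uncertain as to the gene. Exonic peaks lay a median of 10209 bp (old) and 7661 bp (young) from the nearest annotated transcription start, and peaks outside exons 13796 and 13565 bp. The nearest old exonic peak was 3607 bp from a start and the nearest young one 3583 bp.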

How the data were processed

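PRO-cap peaks of frozen mouse liver were analysed from 4 lists of 150-bp intervals, with a larger and a stricter list per age. The larger lists carry a fold (ratio) per peak that the authors deposited, and the score deposited in the stricter lists is 0 throughout, so only their positions were used. Among tools, the submitters' processing notes list HOMER, bedtools 2.27.1-65, SAMtools 1.1, BWA 0.7.10 and cutadapt 2.10. The sources used here do not give the peak calling, the pooling or the definition of cryptic. The strand column is plus throughout and was read as a placeholder.

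Each deposited fold was solved for whole reads: all 1401 had 1 solution within 1e-07 reads, with 1 added to both scaled sides. Old had 0.953 times the depth of young, and total depth is unknown. The solver was tested on simulated data. Ratios are scaled for depth, with 95% Clopper-Pearson intervals, or a floor of 3 reads where the other age had 0.

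Exons and classes came from GENCODE M21, and sequence from its transcripts. Tools were Python 3.11.15, pandas 2.3.3, scipy 1.17.1 and BLAST 2.17.0. With 1 pooled list per age, no test between ages was run. Named peaks were, in each list and class, the 5 with the highest lower bound, genes with 2 or more loci, and genes of the lists. The exonic peaks, lists and comparisons were chosen with earlier results of these data known.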

Additional observations from a re-analysis of the deposited data

How the results depend on the processing

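Over 23 results, 86 alternative values were computed, of which 77 stayed within the 95% interval or 1.5 times of the reported value and 9 did not. By construction, fewer peaks pass stricter rules. With the centre of the peak in an exon, 13.1% of old peaks were exonic, and with at least 75 exonic bases 12.6%. The class read at the centre put 39.8% of old exonic peaks in coding sequence and 46.1% in UTRs, since edge contacts no longer count. With a deposited fold of at least 50 there were 68 old and 14 young exonic peaks, and 10.7% of the young list was exonic, and with at least 20 there were 28 young ones. At 95% identity, 0% of old peaks had a copy. For the class shares alone, the fold of at least 20, joined loci and the minimum of 75 exonic bases were chosen after seeing the data, as was the search for copies in transcripts in place of a genome. The GC content of whole intervals for all peaks and a genome-wide search for copies were not run, since no genome sequence was used here. No paired analysis was possible because each age has 1 pooled list, and leaving out a sample was not possible for the same reason. Low reads limit the ratios, as intervals at 1 to 3 reads span more than an order of magnitude.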
